A study of Mus musculus with 367 samples.

Results

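Transforming growth factor beta (TGF-beta) genes were measured in single cells of healing mouse skin. The group held 10 genes of the 50600 in the deposited tables: the ligands Tgfb1, Tgfb2 and Tgfb3, the receptors Tgfbr1, Tgfbr2 and Tgfbr3, the latent TGF-beta binding proteins Ltbp1, Ltbp2 and Ltbp3, and the inhibitor Smad7. They were chosen by name and role, and all 10 were found in the tables. The cells came from Sm22-Cre;tdTomato mice of mixed background, aged 3 to 8 weeks, in which the Tagln promoter drives Cre and so switches on the tdTomato reporter in cells that have used that promoter. Every mouse received a square excision of 1.5 cm sides on the back, with no further treatment, and skin was taken at post-wound day (PWD) 12, 15 or 21. The labels give 2 to 3 wound tissues a time point, without saying how they were divided among captures. Viable cells with high tdTomato signal were sorted, and single cells were captured on microfluidic chips. The tables held 367 cells in 7 captures, 3 from PWD12, 2 from PWD15 and 2 from PWD21. No unwounded skin and no reporter-free mice were among the cells analysed here, so every group shared the wound, the Cre and the reporter.

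TGF-beta ligands are secreted in a latent form, bound to their own propeptide and, in many cells, to a latent TGF-beta binding protein that anchors them to the matrix. Once released, a ligand is bound by the type II receptor, which activates the type I receptor, and the signal reaches the nucleus through Smad proteins. The pathway is well known in wounds for raising collagen production and contractile gene expression in fibroblasts, and its target Smad7 feeds back to limit the signal.

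Cells were assigned to kinds by 3 genes, in FPKM, the number of sequenced fragments divided by transcript length and library size, a unit that allows levels of different genes to be compared. Matrix cells had at least 1000 FPKM of the collagen gene Col1a1, under 100 of the pericyte gene Rgs5 and under 50 of the myeloid adaptor gene Tyrobp. Mural cells had at least 500 FPKM of Rgs5 and under 50 of Tyrobp, and myeloid cells had at least 500 FPKM of Tyrobp. Of 292 cells kept after filtering, 198 were matrix cells, 57 were mural cells, 26 were myeloid cells and 11 fell outside the gates. The marker lists followed the gates: all 8 matrix fibroblast markers were highest in matrix cells, all 9 mural and all 4 smooth muscle markers in mural cells, and all 11 myeloid markers in myeloid cells. Kept cells were estimated to hold 173696 to 8041817 fragments, with medians of 1471665 in matrix, 1225670 in mural and 2115294 in myeloid cells, and of 1668279, 974095 and 2266186 at PWD12, PWD15 and PWD21. The kinds were not free of each other's genes. At least 1000 FPKM of Col1a1 was present in 19 of 57 mural cells and 4 of 26 myeloid cells, and the summed matrix list ran from 75.9 to 11400 FPKM over the captures' myeloid cells. Conversely, the myeloid genes Ptprc, Lyz2, C1qb and Csf1r were detected in 0.505%, 5.56%, 8.59% and 15.7% of matrix cells. The 8 matrix markers were detected in 19.2% (Pdgfra) to 100% (Col1a2) of myeloid cells and in 29.8% (Pdgfra) to 100% (Col1a2) of mural cells. Whether these values came from free RNA or from the cells themselves was not tested. A member detected in a share of cells within the range of the myeloid genes was not read as expressed. Given the matrix markers' shares, a higher share in mural or myeloid cells does not by itself show expression by those cells.

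The unit of replication was the capture, since cells of 1 capture share a chip and a cell suspension. The labels do not say whether captures of 1 day came from different mice, so p-values measured the spread between captures, which may be technical. limma estimated that spread partly from the other genes tested. For each capture the FPKM of a kind's cells were averaged where at least 3 cells were present. This gave 7 captures for matrix cells, 5 for mural cells (the 3 of PWD12 and the first of PWD15 and of PWD21) and 4 for myeloid cells (the second of PWD12 and of PWD15 and both of PWD21). Detection means a value above 0.

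Of the ligands, Tgfb2 and Tgfb3 were carried at substantial levels by a minority of matrix and mural cells, whereas Tgfb1 was listed at low values in all 3 kinds. Tgfb1 was the lowest ligand of matrix cells, and every myeloid capture mean of Tgfb2 lay below those of the other kinds. For this reason the sequences before the starts of Tgfb1 and Tgfb2 are shown. Both are the 250 bases before the start of transcription in RefSeq (GRCm38.p6), written 5′ to 3′ on the gene's strand. Capitals mark the GC box GGGCGG, searched on both strands and so also written CCGCCC, or the TATA box TATAAA, also searched on both strands. The Tgfb1 window was chr7:25686752-25687001 (plus strand) and the Tgfb2 window chr1:186705990-186706239 (minus strand).
Tgfb1: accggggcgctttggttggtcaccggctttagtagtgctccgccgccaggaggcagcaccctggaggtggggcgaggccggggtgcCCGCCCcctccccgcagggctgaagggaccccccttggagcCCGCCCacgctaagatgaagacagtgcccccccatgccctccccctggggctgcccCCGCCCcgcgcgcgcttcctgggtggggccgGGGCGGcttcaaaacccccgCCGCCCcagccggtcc
Tgfb2: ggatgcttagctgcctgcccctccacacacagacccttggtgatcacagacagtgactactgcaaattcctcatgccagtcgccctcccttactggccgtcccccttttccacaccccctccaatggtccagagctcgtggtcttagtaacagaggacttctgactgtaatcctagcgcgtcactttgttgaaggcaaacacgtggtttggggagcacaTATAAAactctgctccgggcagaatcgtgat
The Tgfb1 window held 5 GC boxes and 0 TATA boxes and was 75.2% G and C, and 1.93% of 32851 promoters held as many GC boxes or more. The Tgfb2 window held 1 TATA box, beginning 31 bases before the start, and 0 GC boxes, and was 53.6% G and C against a median of 52.4% over all promoters. A GC box was present in 32.7% and a TATA box in 12.4% of all promoters. Promoters were found for 7 of the 10 members, and a match of letters is a description only.

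Tgfb1 (chr7:25687002-25705077, plus strand, GRCm38) encodes the ligand most often linked to scarring. The mean per capture in matrix cells had a lowest value of 0.129, a median of 0.364 and a highest value of 5.14 FPKM. In mural cells it was 0.294, 0.224 and 0.492 FPKM in the PWD12 captures, 2.81 at PWD15 and 0.285 at PWD21. In myeloid cells it was 0.607 at PWD12, 4.87 at PWD15, and 0.31 and 0.597 at PWD21. The kinds overlapped, and in each of them a PWD15 capture was the highest. In the first PWD15 capture the single highest cell held 86.95% of the summed value of matrix cells and 94.3% of that of mural cells. Tgfb1 was detected in 32.8% of matrix cells (95% Clopper-Pearson interval 26.3 to 39.8%), 45.6% of mural cells (32.4 to 59.3%) and 61.5% of myeloid cells (40.6 to 79.8%). These intervals, as all others here, cover counting error only. The median value where detected was 0.52 FPKM in matrix, 0.515 in mural and 0.52 in myeloid cells, and 10 FPKM or more was reached in 3, 1 and 1 cells, respectively, so detection was frequent but nearly always at the low end of the scale.

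Tgfb2 (chr1:186622792-186705989, minus strand) encodes a ligand whose release from latency depends less on integrins than that of the other ligands. Its mean per capture in matrix cells ran from 1.77 FPKM through a median of 11.8 to 59.6. Mural cells had means of 23.4, 73.2 and 1.31 FPKM in the PWD12 captures, 47.5 at PWD15 and 0.741 at PWD21. Myeloid cells had means of 0.0536 at PWD12, 0 at PWD15, and 0 and 0.03 at PWD21. Every myeloid capture lay below every matrix and mural capture, whereas matrix and mural captures overlapped. Detection was 40.9% of matrix cells (33.99 to 48.1%), 63.2% of mural cells (49.3 to 75.6%) and 7.69% of myeloid cells (0.946 to 25.1%), the last within the range of the myeloid genes in matrix cells. At 10 FPKM or more the shares were 18.7% of matrix, 21.1% of mural and 0% of myeloid cells. The value rested on few mural cells, since the 5 highest of 57 held 79.7% of the summed Tgfb2.

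Tgfb3 (chr12:86056745-86079041, minus strand) encodes the ligand known for its part in palate fusion. Its mean per capture in matrix cells ran from 3.24 FPKM through a median of 18.3 to 44.6. Over the mural captures it was 20.2, 3.46 and 13.4 FPKM at PWD12, 20.3 at PWD15 and 2.49 at PWD21. Over the myeloid captures it was 1.33 at PWD12, 3.82 at PWD15, and 1.09 and 0 at PWD21. The second PWD12 capture was the lowest in matrix cells and low in mural cells too, and the myeloid captures overlapped both ranges at their upper end. Detection was 46.5% of matrix cells, 36.8% of mural cells and 26.9% of myeloid cells. All 4 myeloid cells with at least 1000 FPKM Col1a1 had Tgfb3, with a mean of 8.70 FPKM, against 3 of the 22 other myeloid cells, with a mean of 0.0291.

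Of the receptors, Tgfbr3 and Tgfbr2 were detected in nearly every matrix cell, and Tgfbr1 in fewer. Tgfbr3 (chr5:107106570-107289629, minus strand) encodes betaglycan, the co-receptor that presents ligands, TGF-beta 2 in particular, to the type II receptor. Its mean per capture in matrix cells was 95.9, 111.1 and 117.7 FPKM at PWD12, 97.95 and 100.3 at PWD15, and 145.0 and 155.3 at PWD21. In mural cells it was 28.9, 22.8 and 36.4 FPKM at PWD12, 17.1 at PWD15 and 62.2 at PWD21. In myeloid cells it was 3.14 at PWD12, 9.90 at PWD15, and 6.76 and 0.473 at PWD21. The 3 kinds did not overlap: every matrix value lay above every mural value and every mural value above every myeloid one. Tgfbr3 was detected in 97.5% of matrix cells (94.2 to 99.2%), 59.6% of mural cells (45.8 to 72.4%) and 15.4% of myeloid cells (4.36 to 34.9%). The myeloid share lay within the range of the myeloid genes in matrix cells and was not read as expression. Of the 4 myeloid cells with Tgfbr3, 3 were among the 4 with at least 1000 FPKM Col1a1, and the other held 1.42 FPKM. The part of matrix gene RNA in these myeloid values was not tested.

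**Figure D1:**
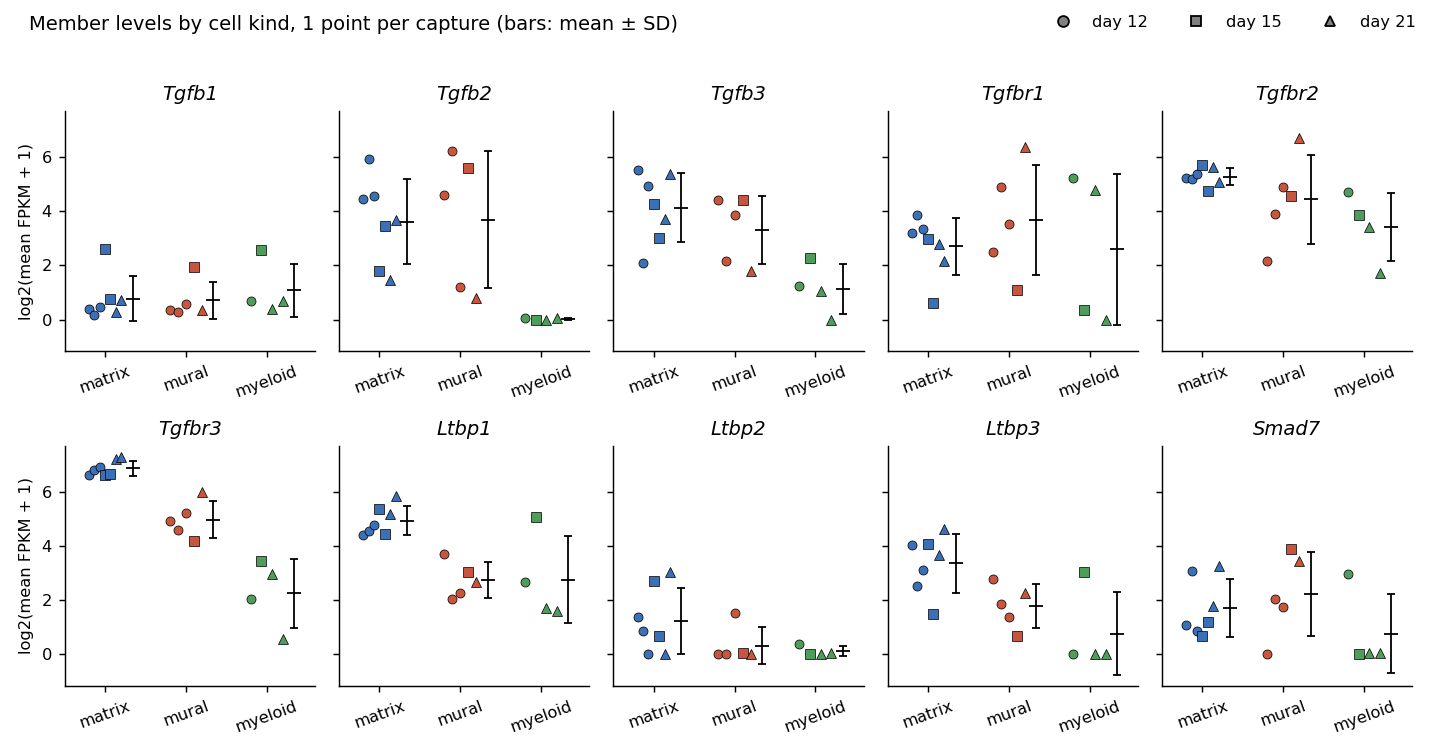
Mean FPKM of each member per capture (vertical axis, log2 of FPKM plus 1) by cell kind, 1 point per capture with at least 3 cells of the kind. Tgfbr3 points of matrix cells (95.9 to 155.3 FPKM) sit above those of mural cells (17.1 to 62.2), which sit above those of myeloid cells (0.473 to 9.90), whereas the kinds overlap for Tgfb1 and Tgfbr1.

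Tgfbr2 (chr9:116084293-116175360, minus strand) encodes the type II receptor, the one that binds TGF-beta 1 and 3 with high affinity. In matrix cells its mean per capture ran from 25.8 FPKM through a median of 36.1 to 50.7. Mural cells had means of 3.50, 13.8 and 29.1 FPKM at PWD12, 22.8 at PWD15 and 102.5 at PWD21. Myeloid cells had means of 25.3 at PWD12, 13.4 at PWD15, and 9.82 and 2.27 at PWD21. The mural captures spread both below and above the matrix captures, and 1 cell held 83.98% of the summed value of the highest. Detection was 96.0% of matrix cells (92.2 to 98.2%), 68.4% of mural cells (54.8 to 80.1%) and 80.8% of myeloid cells (60.7 to 93.5%). At 10 FPKM or more the shares were 64.1%, 38.6% and 23.1%.

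Tgfbr1 (chr4:47353222-47414931, plus strand) encodes the type I receptor kinase ALK5, which phosphorylates Smad2 and Smad3. In matrix cells its mean per capture ran from 0.534 FPKM through a median of 6.79 to 13.6. Over the mural captures it was 4.71, 28.6 and 10.6 FPKM at PWD12, 1.13 at PWD15 and 81.1 at PWD21. Over the myeloid captures it was 36.3 at PWD12, 0.283 at PWD15, and 26.7 and 0 at PWD21. The kinds overlapped over nearly the whole range. Tgfbr1 was detected in 47.5% of matrix, 61.4% of mural and 65.4% of myeloid cells, so it was the receptor seen in the fewest matrix cells.

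Among the latency proteins Ltbp1 was detected in the most cells of each kind, and Ltbp3 came before Ltbp2 in matrix and mural cells. Ltbp1 (chr17:75005568-75392512, plus strand), which tethers the latent complex to fibronectin and fibrillin, had a mean per capture in matrix cells of 20.01, 22.4 and 26.3 FPKM at PWD12, 39.7 and 20.8 at PWD15, and 35.2 and 55.8 at PWD21. The mural means were 12.0, 3.10 and 3.80 FPKM at PWD12, 7.22 at PWD15 and 5.35 at PWD21. The myeloid means were 5.27 at PWD12, 32.3 at PWD15, and 2.30 and 2.01 at PWD21. Every mural capture lay below every matrix capture, and the PWD15 myeloid capture alone of its kind lay among the matrix captures. Detection was 82.3% of matrix cells (76.3 to 87.4%), 47.4% of mural cells (33.98 to 61.03%) and 46.2% of myeloid cells (26.6 to 66.6%). All 4 myeloid cells with at least 1000 FPKM Col1a1 had Ltbp1, with a mean of 38.8 FPKM, against 8 of the other 22, with a mean of 2.80.

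Ltbp3 (chr19:5740904-5758532, plus strand) encodes the binding protein known for bone and tooth growth. Its mean per capture in matrix cells ran from 1.79 FPKM through a median of 11.7 to 23.4. The mural means were 5.79, 2.59 and 1.58 FPKM at PWD12, 0.593 at PWD15 and 3.85 at PWD21. In myeloid cells it was 7.22 FPKM at PWD15 and listed at 0 in the other 3 captures. Mural captures lay at the low end of the matrix range. Ltbp3 was detected in 59.6% of matrix cells (52.4 to 66.5%), 40.4% of mural cells (27.6 to 54.2%) and 1 of 26 myeloid cells, and that cell was 1 of the 4 with at least 1000 FPKM Col1a1. In the other 22 it was not detected, and 3 cells of 22, the limit taken for a count of 0, would be 13.6% of cells with the gene detected at this depth. Among mural cells it was detected in 84.2% of the 19 with at least 1000 FPKM Col1a1 and 18.4% of the 38 others, and Ltbp1 in 68.4% and 36.8%.

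Ltbp2 (chr12:84783212-84876532, minus strand) encodes a microfibril protein that, unlike its relatives, is not known to bind latent TGF-beta. It was detected in 9.09% of matrix cells (5.48 to 13.99%), 5.26% of mural cells and 7.69% of myeloid cells, shares within the range of the myeloid genes in matrix cells. Its mean per capture ran from 0 to 7.24 FPKM in matrix cells, from 0 to 1.88 in mural cells and from 0 to 0.301 in myeloid cells. The few positive matrix cells could be high, the highest reaching 223.5 FPKM.

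Smad7 (chr18:75367529-75395935, plus strand) encodes the inhibitory Smad that blocks the type I receptor. Its mean per capture in matrix cells ran from 0.605 FPKM through a median of 1.30 to 8.49. In mural cells it was 0, 3.10 and 2.38 FPKM at PWD12, 13.9 at PWD15 and 9.86 at PWD21. In myeloid cells it was 6.76 at PWD12, 0 at PWD15, and 0.042 and 0.0333 at PWD21. The kinds overlapped, and detection was 25.8% of matrix, 28.1% of mural and 19.2% of myeloid cells. The matrix captures themselves were uneven, with detection from 3.23% to 61.8% of cells.

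**Figure D2:**
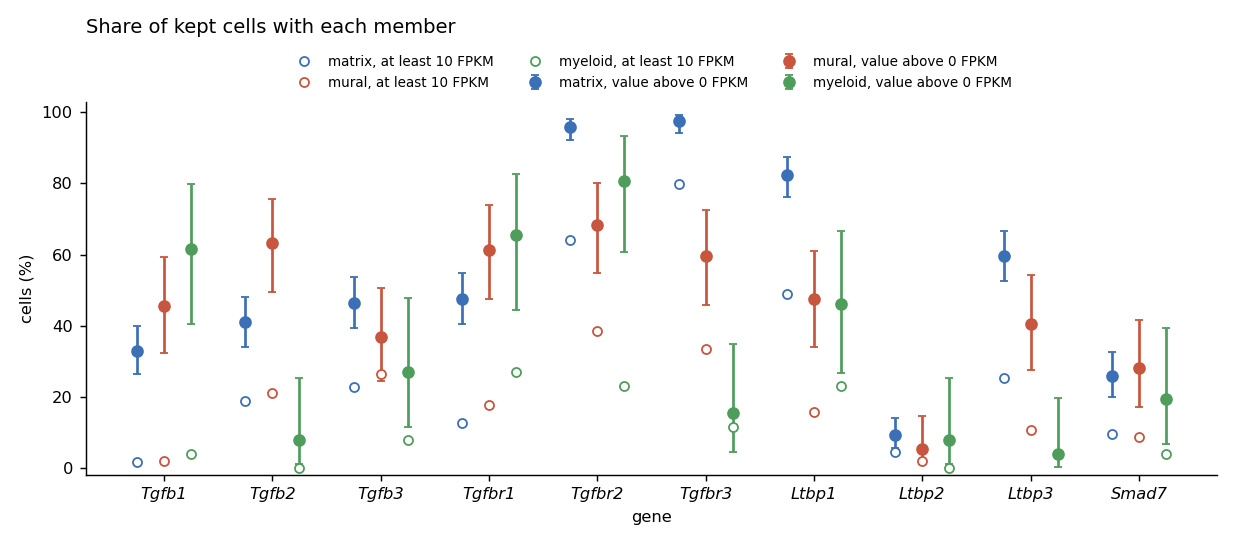
Share of cells (percent) in which each member was detected, by cell kind, with 95% Clopper-Pearson intervals. In matrix cells Tgfbr3 and Tgfbr2 reach 97.5% and 96.0%, whereas Ltbp2 stays at 9.09%. Tgfb2, Tgfbr3 and Ltbp3 are lowest in myeloid cells, at 7.69%, 15.4% and 3.85%.

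Ordered by the median of the capture means, the levels in matrix cells ran Tgfbr3, Tgfbr2, Ltbp1, Tgfb3, Tgfb2, Ltbp3, Tgfbr1, Smad7, Ltbp2 and Tgfb1. Tgfbr3 was above Tgfbr2 in 7 of 7 captures and Tgfbr2 was above Ltbp1 in 6 of 7. Each further neighbour was above the next in 4 or 5 of 7 captures, so those neighbours did not differ beyond their spread over captures. In mural cells the order began with Tgfbr3, Tgfb2 and Tgfbr2, each above the next in 3 of 5 captures. In myeloid cells Tgfbr1 and Tgfbr2 led, each above the other in 2 of 4 captures, and Tgfbr2 was above Tgfbr3 in 4 of 4. Only in matrix cells was the leading gene, Tgfbr3, the same in every capture. In mural cells the leading genes did not differ beyond their spread, and in the PWD15 myeloid capture Ltbp1 led.

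Mural and matrix cells were compared within the same 5 captures by limma on log2(mean FPKM + 1), a scale that understates the change of low genes. Of 13823 genes tested, 1.71% passed an adjusted p of 0.05 (131 higher and 105 lower in mural cells), and of the 9 members tested 0 passed, with 3 at an unadjusted p under 0.05, as were 1976 of the 13823 genes. A count of 0 among 9 is near that background and says nothing about the members as a list. Ltbp2 was below the minimum mean of 1 FPKM and was not tested. The member nearest to the threshold was Tgfbr3, with a difference of -1.85 log2 units (SE 0.42, adjusted p = 0.0581), lower in 5 of 5 captures. It passed under 5 of 14 other settings, among them averaging the log values of cells in place of their FPKM (-3.22, adjusted p = 0.000159) and weighting captures by cells (adjusted p = 0.0259). Its adjusted p reached 0.195 under the others, so the call depended on the processing while the direction did not. Ltbp1 differed by -2.11 (SE 0.58, adjusted p = 0.118) and was likewise lower in 5 of 5 captures. It passed with averaged log values (-1.95, adjusted p = 0.00451). It also passed with the highest cell left out (-2.69, adjusted p = 0.035) and without the mural and myeloid cells of at least 1000 FPKM Col1a1 (-3.25, adjusted p = 0.0444). Both of these settings were chosen after seeing the data. Leaving out 1 cell takes a larger part of the fewer mural cells. Col1a1 is the gate gene of matrix cells, so the other setting removes the mural cells nearest to matrix cells. Mural Ltbp1 had a mean of 13.1 FPKM in the removed cells and 2.82 in the rest. These passes are therefore not read as support. Ltbp3 differed by -1.69 (SE 0.65, adjusted p = 0.267), also lower in 5 of 5.

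The ligands and signalling receptors gave mural differences on both sides of 0. The difference was -0.08 for Tgfb1 (SE 0.55), 0.05 for Tgfb2 (SE 0.90) and -0.78 for Tgfb3 (SE 0.59). It was 0.44 for Tgfbr1 (SE 0.80), -0.97 for Tgfbr2 (SE 0.62) and 0.73 for Smad7 (SE 0.78). For each of these 6 genes 2 SE exceeded 1 log2 unit, so a difference of that size could not be told from 0. The median over the 9 members was -0.78, beside -0.22 over all genes tested. When the log values of cells were averaged, Tgfbr2 passed as well (-1.81, adjusted p = 0.0132), a measure that gives more weight to how many cells hold a gene. Without the highest cell, which held most of the PWD21 value, its difference was -1.76 (adjusted p = 0.156), under a setting that takes a larger part of the fewer mural cells.

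Myeloid and matrix cells differed more widely, and 2 members passed the test. Of 13059 genes, 6.59% passed, 221 higher and 640 lower in myeloid cells, and the median over all genes was -0.998. Of the 10 members, 2 were lower and 0 higher, and the median difference of the 10 was -1.99. Tgfbr3 (-4.74 log2 units, SE 1.06, adjusted p = 0.031) and Tgfb2 (-3.60, SE 0.92, adjusted p = 0.0435) were the 2, each lower in 4 of 4 captures. Both calls were lost when any 1 of the 4 captures was left out, with adjusted p from 0.0526 to 0.0899 for Tgfbr3 and from 0.0695 to 0.136 for Tgfb2, while the differences stayed between -5.24 and -4.07 and between -4.31 and -2.85. Under the 14 other settings, Tgfbr3 passed in 12 and Tgfb2 in 6. Without the myeloid cells of at least 1000 FPKM Col1a1, which left 3 captures, Tgfbr3 differed by -6.91 (adjusted p = 0.0194), and Tgfb3 (-3.70, adjusted p = 0.0449) and Ltbp3 (-3.59, adjusted p = 0.0389) passed in place of Tgfb2 (-3.67, adjusted p = 0.0584). Col1a1 gates matrix cells, so this choice by itself lowers matrix genes in the myeloid cells that remain. Tgfb3 had a mean of 8.70 FPKM in the removed myeloid cells and 0.0291 in the rest. These passes are not read as support.

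Tgfbr2 was also lower in 4 of 4 captures with no overlap of the kinds, but the gap was narrow (25.3 against 25.8 FPKM) and the difference did not pass (-1.74, SE 1.05, adjusted p = 0.308). It passed where log values were averaged over cells (-2.36, adjusted p = 0.0453). Smad7 (-1.56, adjusted p = 0.255) and Tgfb3 (-2.41, adjusted p = 0.153) were lower in 4 of 4 captures too, with overlapping ranges. Ltbp1 (-2.25) and Ltbp3 (-2.31) were lower in 3 of 4. Only Tgfb1 (0.59, SE 0.78) and Tgfbr1 (0.23, SE 0.99) had differences above 0, and neither passed. For the signalling receptors the test therefore found no difference, with errors near 1 log2 unit that leave room for a large one.

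Myeloid and mural cells could be compared in only 2 captures, the second of PWD12 and the first of PWD21. Of 12058 genes, 2.55% passed (190 higher and 118 lower in myeloid cells), and of the 8 members tested 0 passed by limma, with 0 at an unadjusted p under 0.05, as were 1523 of the 12058 genes. Tgfb2 differed by -3.47 (SE 1.85, adjusted p = 0.432) and Tgfbr3 by -2.78 (SE 1.71, adjusted p = 0.545), each lower in 2 of 2 captures. With 2 captures these SEs came almost wholly from the spread of other genes. The SD over the captures was 3.77 for Tgfb2 and 0.354 for Tgfbr3, so the p-values do not measure each gene's own spread. In a joint fit of all 3 kinds Tgfbr3 passed (-2.86, adjusted p = 0.0474).

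**Figure D3:**
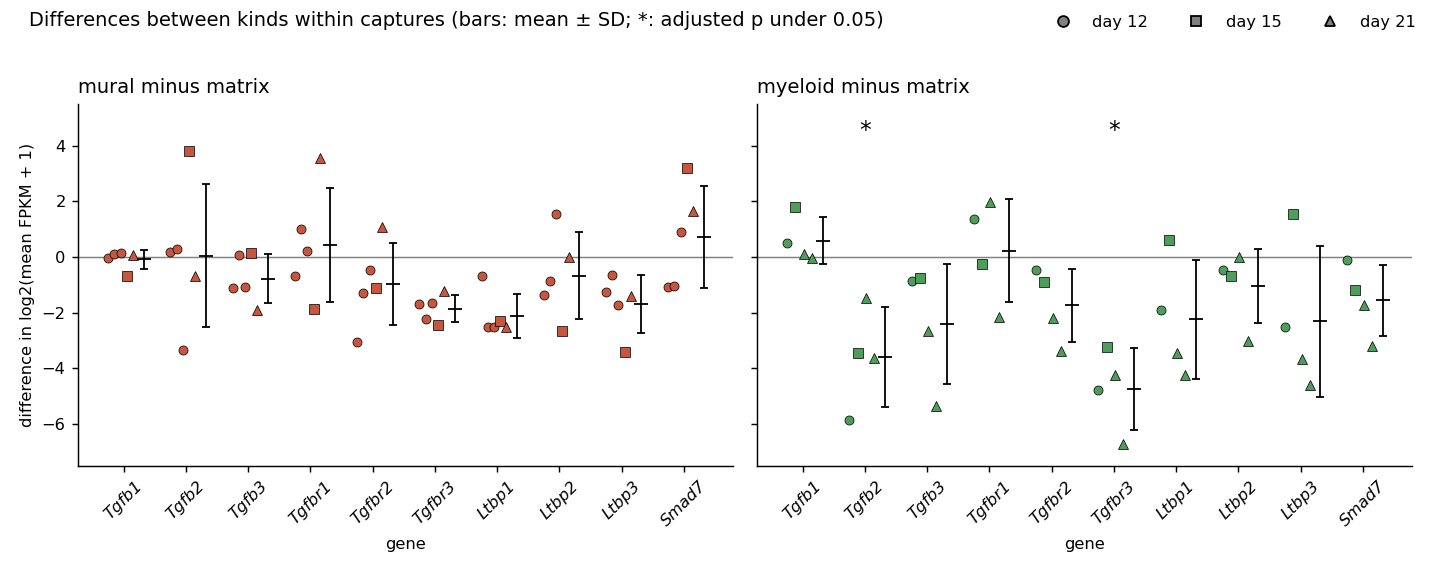
Differences between cell kinds within captures, on log2(mean FPKM + 1), 1 point per capture, with the mean and SD over captures. All points of Tgfbr3 and Ltbp1 lie below 0 in mural minus matrix, and all points of Tgfbr3, Tgfb2, Tgfbr2, Tgfb3 and Smad7 lie below 0 in myeloid minus matrix.

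Over time, the matrix cells of PWD12, PWD15 and PWD21 were compared to ask whether the pathway's genes changed as the wound matured. Between PWD15 and PWD12, 0% of 13552 genes passed (0 genes, with 791 at an unadjusted p under 0.05 by limma). Between PWD21 and PWD12, 0.00738% passed, which is 1 gene and no member, with 968 at an unadjusted p under 0.05. Between PWD21 and PWD15, 0% passed, with 745 at an unadjusted p under 0.05. Of the 10 members 0 passed in each comparison, and at an unadjusted p under 0.05 there were 1, 1 and 0, in that order. With 3, 2 and 2 captures, only large and even differences could have passed.

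Tgfb2 was the member at an unadjusted p under 0.05 in both comparisons with PWD12. Its capture means in matrix cells were 20.8, 59.6 and 22.7 FPKM at PWD12, 2.44 and 9.99 at PWD15, and 1.77 and 11.8 at PWD21. The PWD12 captures did not overlap the later ones. The difference was -2.36 at PWD15 (SE 0.91, adjusted p = 0.799) and -2.40 at PWD21 (SE 0.91, adjusted p = 0.633). Tgfb2 was detected in 63.5% of PWD12 matrix cells, 26.4% at PWD15 and 28.8% at PWD21. With log values averaged over cells, the PWD21 difference passed (-2.03, adjusted p = 0.0471) and the PWD15 difference did not. Median fragments per cell differed between the days as given above, being higher at PWD21 than at PWD12, and day and capture depth cannot be told apart.

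Tgfbr3 ran the other way: both PWD21 captures (145.0 and 155.3 FPKM) lay above all 5 earlier ones (95.9 to 117.7), with a difference of 0.47 from PWD12 (SE 0.38, adjusted p = 0.823). Tgfbr1 at PWD12 (8.27 to 13.6 FPKM) lay above all later captures (0.534 to 6.79), with differences of -1.68 at PWD15 (SE 0.91, adjusted p = 0.876) and -0.99 at PWD21 (SE 0.91, adjusted p = 0.849). Neither passed. Tgfbr2 was the steadiest of the signalling genes, with differences of -0.05 and 0.10 from PWD12 (SE 0.53 for each). Smad7 was detected in 3.23%, 38.5% and 17.6% of matrix cells in the PWD12 captures, 14% and 22.7% at PWD15, and 22.2% and 61.8% at PWD21, so captures of 1 day were uneven at PWD12 and PWD21. Its differences from PWD12 were -0.73 and 0.85 (SE 1.00 for each), neither of which passed.

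**Figure D4:**
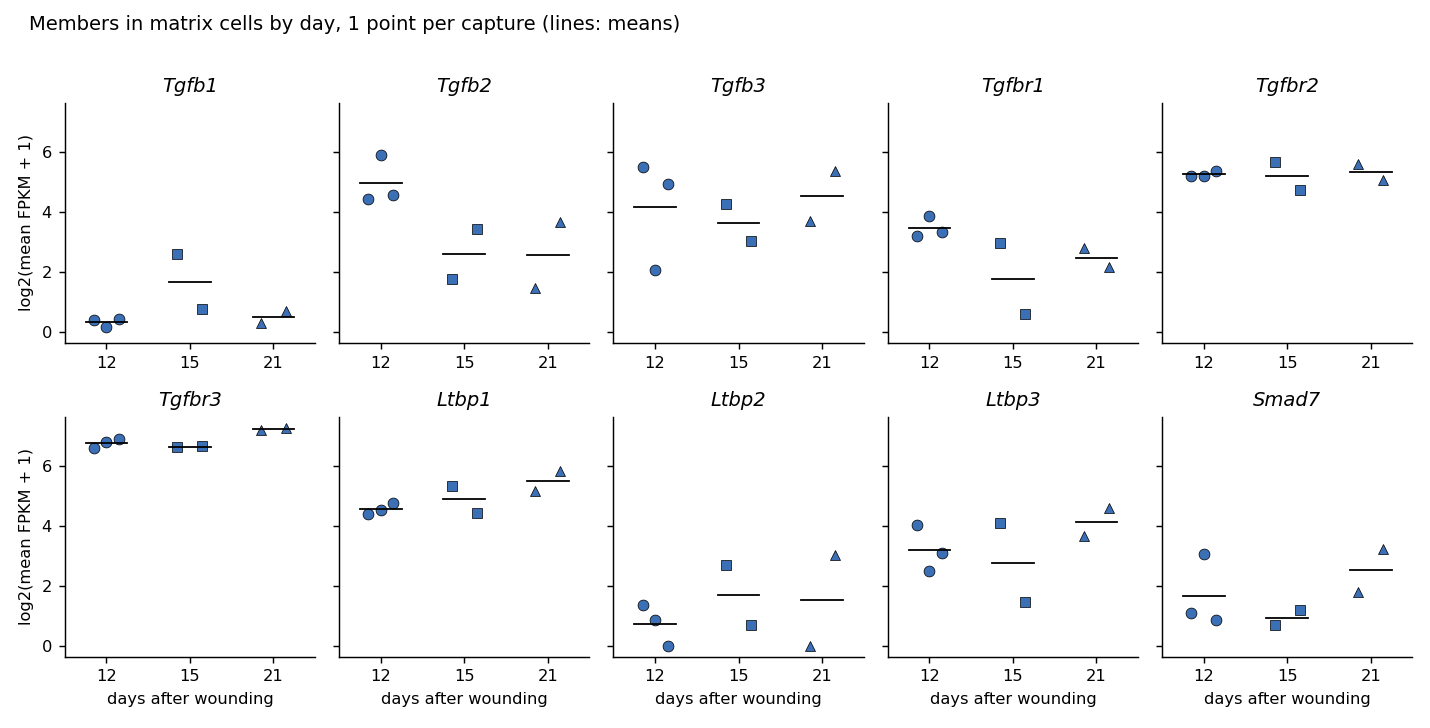
Mean FPKM of each member in matrix cells per capture (log2 of FPKM plus 1) by post-wound day, 1 point per capture. The 3 PWD12 points of Tgfb2 (20.8 to 59.6 FPKM) lie above the 4 later ones (1.77 to 11.8), and the PWD21 points of Tgfbr3 lie above all earlier ones.

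Within single cells 4 pairs of members were examined for detection in the same cell. Tgfb2 and Tgfb3 were both detected in 18.7% of matrix cells, where the product of their shares is 19%. Tgfbr1 and Tgfbr2 were both detected in 46% of matrix cells (product 45.6%) and in 38.6% of mural cells (product 42%). Tgfbr2 and Tgfbr3 were both detected in 93.4% of matrix cells (product 93.5%) and 45.6% of mural cells (product 40.8%), and Ltbp1 and Ltbp3 in 50.5% (product 49.1%) and 22.8% (product 19.1%). Thus nearly every matrix cell with the type I receptor also had the type II receptor, because nearly all cells had the latter. No ligand was detected in 43 of 198 matrix cells, 1 ligand in 87, 2 in 53 and all 3 in 15. The number of members detected per cell had a median of 5 in matrix, 4 in mural and 3 in myeloid cells. Rank correlations between members over the matrix cells of a capture were weak, with medians over captures from -0.0872 to 0.214, and in sparse values no relation was read from them.

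The other genes of the pathway were grouped into 4 lists, chosen with earlier results of these data known. Beside the counts below, 1.71% of all genes tested passed in mural and 6.59% in myeloid against matrix cells. Among latency and activation genes, 0 were higher and 2 lower in mural than in matrix cells, of 13 tested. The 2 were Thbs2 (-2.38, adjusted p = 0.00862), a matricellular thrombospondin, and Dcn (-2.11, adjusted p = 0.0023), a proteoglycan that binds TGF-beta and that is also a matrix fibroblast marker. Emilin1, an elastic fibre glycoprotein that restrains TGF-beta processing, had the largest difference and did not pass (-2.44, adjusted p = 0.136). In myeloid cells 1 was higher and 3 were lower than in matrix cells, of 14 tested. Nrros, which tethers latent TGF-beta on myeloid cells, was higher (5.39, adjusted p = 0.0286): it ran from 1.95 to 300 FPKM over myeloid captures and from 0 to 0.0142 over matrix captures. Nrros reached the minimum mean of 1 FPKM through its myeloid values alone, so it could enter the test only as a gene high in myeloid cells. It was detected in 22 of 26 myeloid cells, 5 of 198 matrix cells and 0 of 57 mural cells, for which the Clopper-Pearson upper limit is 6.27% of cells with the gene detected. Thbs2 (-5.00), Dcn (-4.47) and Emilin1 (-3.94) were the 3 lower ones. Lrrc32, the related tether known from regulatory T cells, was detected in 24 of 57 mural cells, 24 of 198 matrix cells and 3 of 26 myeloid cells.

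Co-receptors and related receptors gave 0 passing genes in each comparison, of 8 tested for mural and 6 for myeloid against matrix cells. The largest differences were those of the activin receptor genes Acvr2b (1.77, adjusted p = 0.459), Acvr1b (-1.49) and Acvr1 (-1.24) in mural cells, and of the co-receptor gene Cd109 (-2.45, adjusted p = 0.108), the type I receptor gene Acvrl1 (-1.11) and Acvr1 (-1.01) in myeloid cells. Acvr2b was detected in 5 of 57 mural cells, the highest at 1955 FPKM. Its means ran from 0 to 1.19 FPKM over matrix captures, so it entered the test through its mural values. The intracellular signalling genes also gave 0, of 12 tested in each. Examples are the receptor-activated Smad3 (-1.64, adjusted p = 0.4) and the Smad inhibitor Pmepa1 (-1.62, adjusted p = 0.275) in mural cells and the common partner Smad4 (-2.49, adjusted p = 0.176) and the Smad anchor gene Zfyve9 (-2.15, adjusted p = 0.112) in myeloid cells. Tgif1, a repressor of Smad-driven transcription, differed by -1.50 in mural cells (adjusted p = 0.255) and by -2.44 in myeloid cells (adjusted p = 0.16). At an unadjusted p under 0.05 the 2 lists together held 3 of 20 genes for mural and 4 of 18 for myeloid against matrix cells, beside 1976 of 13823 and 3589 of 13059 over all genes.

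The last list held response genes, known to rise with TGF-beta in fibroblasts. Its counts stand beside the 1.71% and 6.59% of all genes that passed in mural and in myeloid against matrix cells. In mural cells 1 was higher, Tagln (1.69, adjusted p = 0.0244), and 4 were lower, of 15 tested: Tgfbi (-3.26, adjusted p = 0.0271) and Lox (-3.13, adjusted p = 0.0451), which encode a matrix adhesion protein and the collagen crosslinking enzyme, and Col3a1 (-1.80) and Postn (-1.45). Acta2 did not pass (2.69, adjusted p = 0.0624). Tagln and Acta2 encode contractile proteins that serve as smooth muscle markers, Tagln drives the reporter by which cells were sorted, and Col3a1 and Postn serve as matrix markers, so these 4 are cell kind markers as well. In myeloid cells 6 of 15 were lower than in matrix cells, namely the matricellular gene Cyr61 (-4.66), Tagln (-4.50), Col3a1 (-4.33), the fibronectin gene Fn1 (-4.18), Postn (-3.56) and the cell cycle inhibitor Cdkn2b (-3.04). Over days, 0 genes of any list passed by limma, of 13 latency, 8 receptor, 12 signalling and 15 response genes tested. At an unadjusted p under 0.05 there were 4, 10 and 3 genes of the 4 lists in the 3 comparisons. Over all 13552 genes there were 791, 968 and 745. Acta2 in matrix cells differed by -3.90 at PWD15 (SE 0.67, adjusted p = 0.218) and by -3.30 at PWD21 (SE 0.67, adjusted p = 0.235) from PWD12, and Lrrc32 by 2.42 at PWD21 (adjusted p = 0.679).

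Between myeloid and mural cells, in 2 captures, 2.55% of all genes tested passed. Nrros was the 1 latency gene to pass by limma of 13 tested, higher in myeloid cells (7.75, adjusted p = 0.000853). Its mural means were 0, so here too it entered the test through its myeloid values alone. With the myeloid cells shared between the comparisons, this is no independent repeat. Thbs1 (-3.06) and Emilin1 (-2.99) did not pass. Of the response genes 4 of 14 were lower in myeloid cells: the focal adhesion gene Tgfb1i1 (-5.83), Tagln (-5.27), Acta2 (-5.06) and Col3a1 (-2.32). Receptor and signalling genes gave 0 of 8 and 0 of 12, with the largest differences at Acvr2b (-4.18), Acvr2a (-2.71), Cd109 (-2.63), Smad2 (4.63), Smad3 (3.02) and Tgif1 (-2.67). Acvr2b entered this test too through its mural values, with 5 of 57 mural cells detected.

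The largest differences over days, none of which passed, are given for latency, receptor, signalling and response genes in that order. At PWD15 against PWD12 they were Thbs2 (0.65), Furin (0.48) and Itgb3 (0.47), Acvr1b (0.98), Acvrl1 (0.71) and Cd109 (0.59), Smurf2 (-1.90), Zfyve9 (1.30) and Smurf1 (1.01), and Tgfbi (-2.61) and Tgfb1i1 (-1.15) after Acta2. At PWD21 against PWD12 they were Ltbp4 (2.23) and Dcn (0.60) after Lrrc32, Cd109 (1.39), Eng (1.13) and Acvr2a (-1.07), Smad2 (-2.43), Smurf1 (1.91) and Tgif1 (-1.63), and Cdkn1a (2.96) and Tagln (-1.34) after Acta2. At PWD21 against PWD15 they were Lrrc32 (2.23), Ltbp4 (2.19) and Fbn1 (0.69), Eng (1.65), Acvr2a (-1.24) and Acvr1b (-0.85), Smad4 (1.51), Smurf2 (1.50) and Smad2 (-1.47), and Cdkn1a (3.26), Tgfbi (1.73) and Ctgf (1.37). Lrrc32 and Ltbp4, a relative of the member latency proteins, headed the latency list in both comparisons with PWD21. These comparisons share the PWD21 captures, so this is no independent repeat. Lrrc32 was detected in 12.1% of matrix cells, within the range of the myeloid genes there, and the 5 highest cells held 82.6% of its sum.

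**Figure D5:**
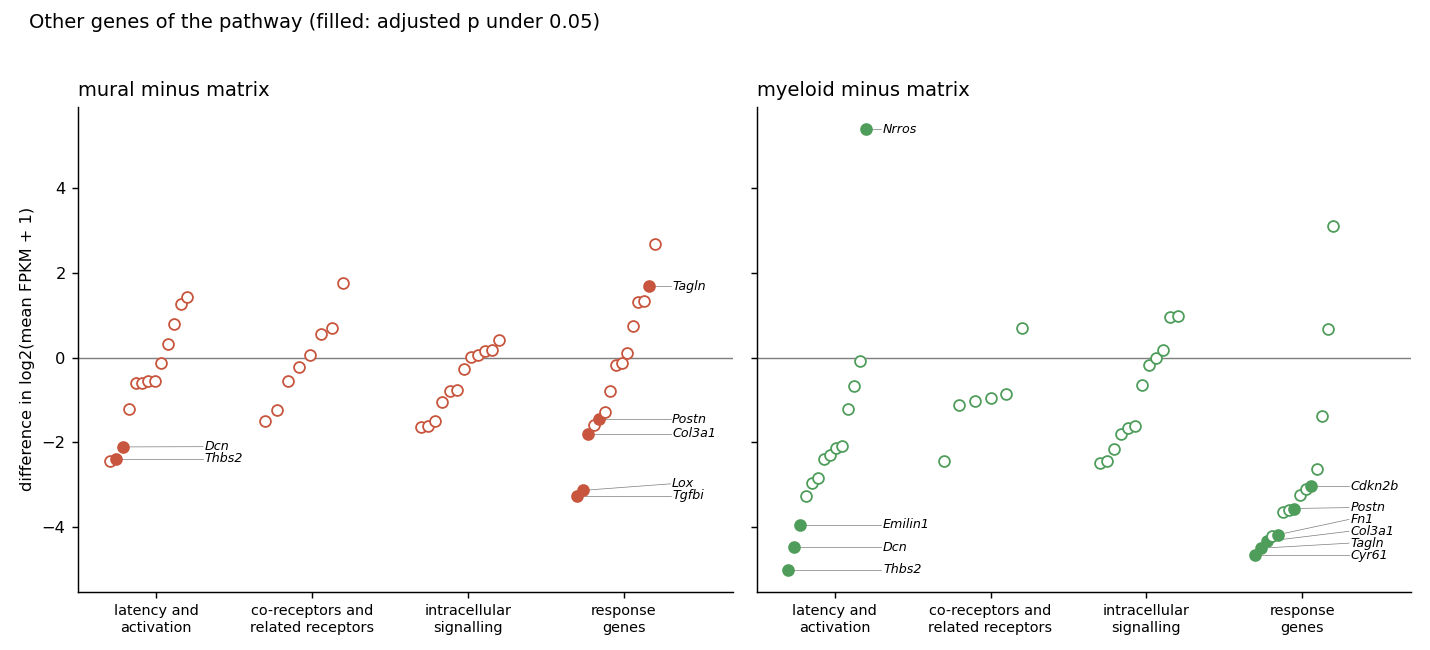
Differences between cell kinds on log2(mean FPKM + 1) for the 4 lists of other pathway genes, 1 point per gene tested, with filled points for genes past an adjusted p of 0.05. Thbs2 and Dcn lie below 0 among the latency genes in both comparisons with matrix cells, and Nrros is the latency gene past the threshold above 0 in myeloid cells.

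Finally, the genes whose levels ran most like each member were found by Pearson correlation over the 16 profiles of captures and kinds, among genes that passed the same minimum mean. These profiles share captures and depth, and the values describe them only. For Tgfbr3 they were the matrix genes Thbs2 (0.953), Ccdc80 (0.950) and Vcan (0.948). For Ltbp1 they were Papss2 (0.921), which makes the sulphate donor used for proteoglycans, Fhod3 (0.920) and Phldb2 (0.902). Fhod3 was also among the 3 genes most like Ltbp3 (0.872), below S100a16 (0.884). For Tgfb2 they were Armcx4 (0.919), Abce1 (0.904) and Sulf1 (0.890), an extracellular heparan sulphatase, and for Tgfbr2 Spag9 (0.910), the Wnt receptor gene Fzd1 (0.896) and Eml1 (0.862). The likeness was lowest for Smad7, whose nearest gene was Polr2m (0.848), and Tgfb1, whose nearest was Morn4 (0.835).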

How the data were processed

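Single-cell cDNA libraries were sequenced by the authors, aligned to the mouse genome (mm10, GENCODE release 13) with Bowtie (1.0.0) and quantified with RSEM, and the deposited values were FPKM per gene and cell. These files hold no read numbers, so fragments per cell were estimated from the steps of FPKM values at 7457 genes with 1 transcript of 1000 to 3000 bp, assuming fragments of 300 bp. Cells under 159000 fragments, over 11000 genes or over 15% mitochondrial FPKM were left out (75 of 367), and doublets were not called. No cell's values equalled those of another. Names and positions came from GENCODE release 21, with 50376 of 50600 identifiers found. FPKM were averaged per capture and kind (at least 3 cells), and log2(mean + 1) was fitted with limma 3.58.1 (R 4.3.3), with trend, over genes of mean FPKM at least 1. Captures were blocks between kinds, with no block between days, and p-values were two-sided and adjusted by Benjamini-Hochberg over all genes tested. The procedure was tested on simulated data. Named genes were the members and, per list, those past the threshold and the 3 largest differences. Members and lists were chosen with earlier results of these data known. Alternatives are given in the closing section.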

Additional observations from a re-analysis of the deposited data

Results flagged for a closer look

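Some values stood apart from the rest of their group, and for the outliers in this paragraph chance alone marks about 1 in 20 groups. Of 5 captures, the first of PWD15 gave a mural minus matrix difference of -0.69 for Tgfb1 on the log2 scale, far below the other 4, and the first of PWD12 gave -0.69 for Ltbp1, far above the other 4.

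The mural minus matrix difference of Tgfbr2 was below 0 in all 3 PWD12 captures (mean -1.61) and above 0 in the single PWD21 capture (1.07), in which 1 mural cell held 83.98% of the summed value. The myeloid minus matrix difference of Ltbp1 was 0.61 in the single PWD15 capture and below 0 in both PWD21 captures (mean -3.85). That of Ltbp3 was 1.56 in the same PWD15 capture and below 0 in both PWD21 captures (mean -4.14). The matrix fibroblast gene Dcn had a median over myeloid cells of 1065 FPKM (mean 1742) in the PWD15 capture. Its medians were 1.18 and 13.5 FPKM in the PWD21 captures. A myeloid cell of the first PWD21 capture held 3150 FPKM of Dcn, while the means there were 0 FPKM for Ltbp3 and 2.30 for Ltbp1. Whether matrix gene RNA accounts for these values was not tested. The myeloid Ltbp3 of the PWD15 capture came from 1 cell, which had at least 1000 FPKM Col1a1. The differences between days were not tested, and each rests on 1 capture on one side.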

How the results depend on the processing

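Each comparison was repeated under up to 14 other settings, besides leaving out each capture. Of 1020 recomputed differences of members, 932 kept direction and call, 18 lost and 15 gained the call, and 55 changed direction. No member called in the comparisons above changed direction, and the largest difference that did was 0.95 in size. Of 120 recomputed shares of cells, 41 moved beyond their interval, 26 of them with detection from 10 FPKM, 14 with detection from 1 FPKM and 1 with all deposited cells. The count of members past the threshold in mural against matrix cells, 0, became 1 after rescaling each cell to a common total, with stricter gates, with captures weighted by cells, with no replicate block, without the highest cell and without the mural and myeloid cells of 1000 FPKM Col1a1, and 3 with averaged log values. In myeloid against matrix cells the count of 2 became 1 with a pseudocount of 10, with all deposited cells, with no variance trend and without the highest cell, and 3 without the Col1a1 cells. It stayed at 2 with averaged log values, but with Tgfbr2 (adjusted p = 0.0453) in place of Tgfb2 (adjusted p = 0.0859). It became 0 with no filter on low values, with at least 5 cells and with each capture left out. In myeloid against mural cells 0 became 1 with averaged log values (Tgfb2, -2.46) and in the joint fit, and at PWD21 against PWD12 0 became 1 with averaged log values. The settings without the highest cell, without the Col1a1 cells and with detection from 10 FPKM were chosen after seeing the data. The first takes a larger part of the kinds with fewer cells. The second takes the cells nearest to matrix cells by the gate gene itself. Calls gained under either are not read as support. The cause of these changes was not tested.

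Over all genes, the 236 called in mural against matrix cells became 657 with averaged log values, 461 with weights, 596 without the Col1a1 cells, 147 in the joint fit, 90 with no variance trend, 60 without the highest cell and 19 with no filter. Over the captures left out it ran from 102 to 228. The 861 in myeloid against matrix cells became 3253 with weights, 2200 in the joint fit, 1454 without the highest cell, 1365 after rescaling, 1360 without the Col1a1 cells, 485 with all deposited cells, 183 with a pseudocount of 10, 154 with at least 5 cells and 31 with no filter, and ran from 108 to 340 over the captures left out. The 308 in myeloid against mural cells became 918 in the joint fit, 699 with averaged log values, 199 with a pseudocount of 10, 183 with all deposited cells, 203 without the Col1a1 cells and 0 with no replicate block or without the highest cell. Between days, averaged log values gave 28 genes at PWD15 and 70 at PWD21 against PWD12.

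Differences that changed direction, none of them called, were as follows. In mural against matrix cells Tgfb1 became 0.03 with a pseudocount of 0.1, 0.04 with all deposited cells, 0.08 with averaged log values and 0.02 without the Col1a1 cells. Tgfb2 became -0.10 with a pseudocount of 0.1, -0.09 after rescaling, -0.29 without the highest cell and -0.39 without the Col1a1 cells. Tgfbr1 became -0.07 with weights and Smad7 -0.18 without the highest cell. In myeloid against matrix cells Tgfbr1 became -0.59 with a pseudocount of 0.1 and -0.15 in the joint fit, and in myeloid against mural cells Ltbp1 became 0.14 with all deposited cells and 0.24 without the Col1a1 cells. At PWD15 against PWD12, Tgfbr2 became 0.08 with averaged log values, 0.16 with weights and 0.06 without the highest cell, Ltbp1 -0.34 with averaged log values and Ltbp3 0.01 with weights. At PWD21 against PWD12, Tgfb3 became -0.19 with all deposited cells. At PWD21 against PWD15, Tgfb2 became 0.02 with a pseudocount of 10 and with stricter gates, 0.07 with all deposited cells and 0.62 with weights. Ltbp2 became 0.04 with a pseudocount of 10, 0.36 with all deposited cells, 0.03 with averaged log values and 0.17 without the highest cell, and Tgfbr2 became -0.04 with averaged log values and -0.12 with weights.

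With a capture left out, in mural against matrix cells Tgfb2 ran from -0.89 to 0.90 and Tgfbr1 from -0.34 to 1.02, and in myeloid against matrix cells Tgfbr1 ran from -0.36 to 1.03. At PWD15 against PWD12, Tgfb3 ran from -1.57 to 0.14, Tgfbr2 from -0.52 to 0.43, Ltbp1 from -0.12 to 0.78, Ltbp2 from -0.05 to 1.95 and Ltbp3 from -1.73 to 0.88. At PWD21 against PWD12, Tgfb1 ran from -0.05 to 0.38, Tgfb3 from -0.68 to 1.19, Tgfbr2 from -0.17 to 0.36 and Ltbp2 from -0.74 to 2.30. At PWD21 against PWD15, Tgfb2 ran from -1.15 to 1.05, Tgfbr1 from -0.48 to 1.87, Tgfbr2 from -0.33 to 0.62 and Ltbp2 from -1.69 to 1.35. Where that left 1 capture in a day, it was taken to vary like the others. Myeloid against mural cells was not run with a capture left out, since 1 capture would remain.

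Captures of different days share only a number: correlations of their deviations from the day means ran from -0.007 to 0.025. With the replicate block, 0 members passed in each comparison of days, and Tgfbr2 became 0.01 at PWD15 against PWD12.

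Depth is an estimate from FPKM steps, not a count of reads. A gene listed at 0 was not detected at this depth, and day, capture and depth cannot be told apart.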

Other observations

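The 11 kept cells outside the 3 gates are in no comparison above. Tgfbr3 was detected in 10 of these 11, with a mean of 105.5 FPKM.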
